A study of Rattus rattus with 10 samples.

Results

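The genes described here are the 42 proteasome subunit and proteasome helper genes of the rat testis that an Affymetrix Rat230_2 array measured under a single gene symbol. They were taken from the 14217 genes with a single symbol by the form of the symbol: Psm, a letter from a to g and a number. The interferon-inducible catalytic subunits Psmb8 and Psmb9 were left out. Where a gene had several probe sets, the brightest over the 10 arrays was used. The pattern also took in Psmc3ip and Psme3ip1, which are not proteasome subunits, so they were set apart. Each is a single probe set that differed from vehicle by -0.06 ± 0.08 for Psmc3ip and by -0.06 ± 0.12 for Psme3ip1 under gamendazole (log2, standard error). The members comprised 7 alpha ring and 7 beta ring genes of the 20S core particle, 6 ATPases and 11 other subunits of the 19S regulatory particle, 7 assembly chaperones, 3 activators and the inhibitor-like Psmf1. Psmb6 and Psme3 lie on probe sets with several symbols, and Psma8 had no probe set with a single symbol, so these 3 genes were not analysed here.

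Whole testes of Long-Evans male rats aged 60 days were profiled after 1 intraperitoneal dose of gamendazole (6 mg/kg), of lonidamine (25 mg/kg) or of the DMSO vehicle. Gamendazole and lonidamine are related indazole carboxylic acids, both known to disturb spermatogenesis. Each of these 3 treatments had 1 array at 4 h, at 12 h and at 24 h, and the vehicle had 1 more array at 0 h. How many animals stood behind an array, and whether their RNA was pooled, the labels do not say, so p-values measure the spread between these arrays.

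The proteasome is the barrel-shaped protease that degrades proteins tagged with ubiquitin. Its 20S core carries the cutting sites inside stacked alpha and beta rings, while the 19S particle recognises, unfolds and feeds the substrate, and PA28 or PA200 can cap the core in its place. In many mammalian cells a shortage of proteasome activity is met by the transcription factor Nfe2l1, which raises most subunit genes together, and interferon gamma raises PA28 and the immunoproteasome subunits instead. In the testis the proteasome is needed for meiosis and for the removal of histones from spermatids.

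The proteasome genes gave signals far above the floor on all arrays. The members' signals lay between 451.8 and 28161.4 units, while the floor set under weak signals was 37.1 units, and all 42 passed the filter on weak signals. Their levels were also steady. The highest of the 10 arrays exceeded the lowest by 1.104-fold for Psmd2, a scaffold subunit of the 19S base, and by 2.82-fold for Psme2, the beta chain of PA28, with a median over members of 1.29-fold. Over the 4 vehicle arrays the coefficient of variation ranged from 1.29% for Psma2 to 33.1% for Psmg3, with a median of 4.80%. The median standard deviation among vehicle arrays was 0.07 log2 units for members, 0.09 for the 6814 tested probe sets within the members' range of brightness and 0.17 for all 17549 tested probe sets.

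Averaged over the 3 hours, most proteasome genes lay close to vehicle with either drug. The median log2 difference of the 42 members was 0.01 for gamendazole over vehicle, beside -0.06 for probe sets of the same brightness and -0.03 for all tested probe sets. For lonidamine over vehicle it was 0.01, beside -0.04 for the same brightness and -0.01 for all. With gamendazole 24 of the 42 genes had a difference above 0, and with lonidamine 23 did. The 95% interval lay within 1.5-fold of vehicle in both directions for 36 members under gamendazole and for 37 under lonidamine. The median half-width of these intervals was 0.19 log2 units for members, beside 0.40 for all tested probe sets. Both comparisons use the same vehicle arrays.

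In limma, at an adjusted p under 0.05 over all tested probe sets, 1 member was higher and 0 were lower with gamendazole. That is 2.38% of the members called higher, beside 3.48% of all tested probe sets called higher and 0.473% called lower. With lonidamine limma called 0 members, beside 0.769% of all tested probe sets higher and 0.0114% lower. Without adjustment, 7 members had a p under 0.05 with gamendazole, which is 16.7% of them beside 3512 of the 17549 tested probe sets (20%), and 2 with lonidamine, 4.76% beside 12.7%. In these comparisons averaged over the hours, no share of members was above that of all tested probe sets. The hours stand in for replicates in this fit, so a change seen at a single hour widens the error.

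**Figure D1:**
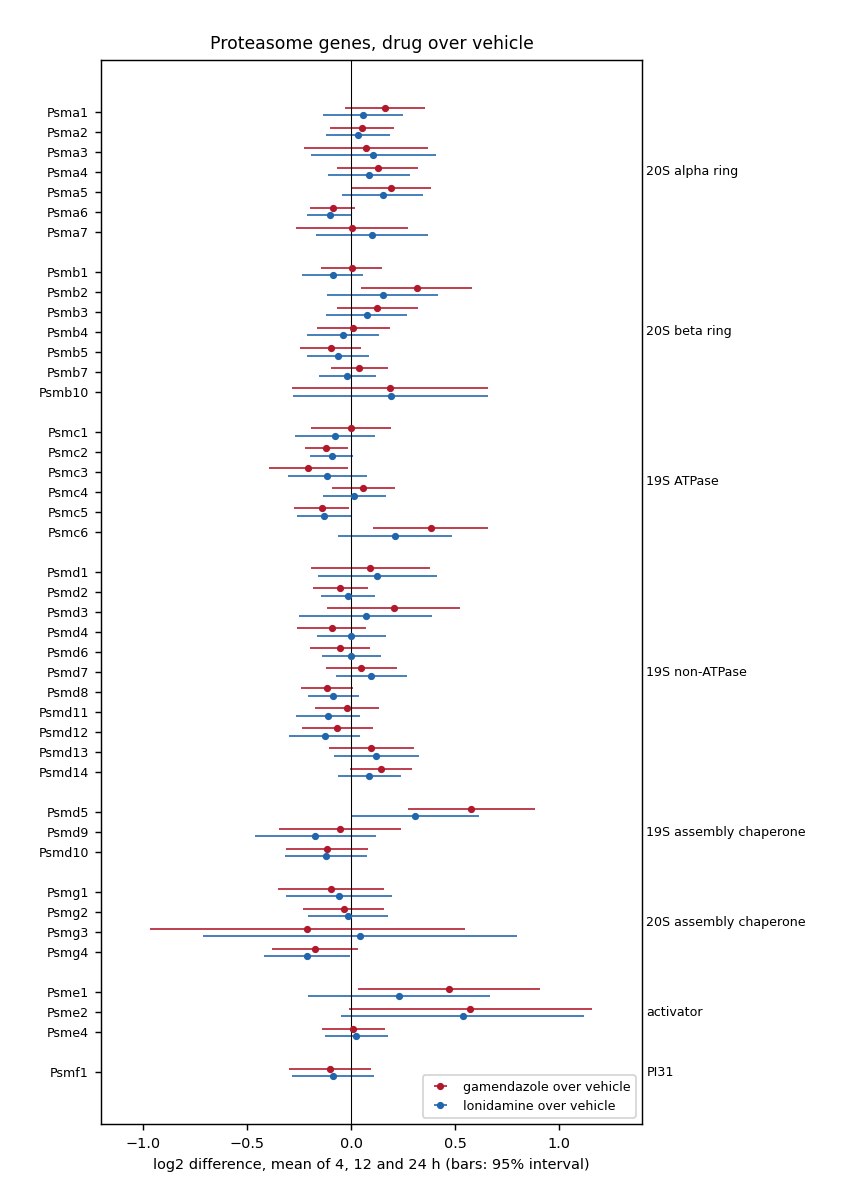
Log2 difference from vehicle averaged over 4, 12 and 24 h for each of the 42 genes (horizontal axis), grouped by role, with 95% intervals as bars; gamendazole is drawn above lonidamine for each gene. Most intervals cross 0. Psmd5 (0.58), Psme2 (0.57) and Psme1 (0.47) lie furthest to the right for gamendazole, and Psme2 (0.54) for lonidamine.

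Psmd5, a chaperone that helps to assemble the base of the 19S particle and does not remain in the finished proteasome, was the gene called in the averaged comparison. It had 545.7, 813 and 738.3 units at 4, 12 and 24 h with gamendazole, 537.7, 562 and 616.9 units with lonidamine, and 526, 451.8, 474.5 and 458.7 units with vehicle at 0, 4, 12 and 24 h. All 3 arrays of each drug lay above all 4 vehicle arrays, and the 12 h and 24 h gamendazole arrays were the highest. The averaged difference was 0.58 ± 0.14 for gamendazole over vehicle (1.49-fold, limma adjusted p = 0.0477). For lonidamine over vehicle it was 0.31 ± 0.14 (1.24-fold, adjusted p = 0.389). The gamendazole call lay near the threshold: without the 12 h arrays or without the 24 h arrays 0 members were called, and over 14 alternative settings the adjusted p ranged from 0.018 to 0.479.

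The other 19S chaperones, Psmd9 and Psmd10, did not pass the test with either drug. Psmd9 had 640.6, 550 and 594 units with gamendazole, 573.1, 597 and 477.5 units with lonidamine and 648.9, 584.2, 625.5 and 638.2 units with vehicle. Its drug arrays overlapped the vehicle arrays, and the averaged difference was -0.05 ± 0.13 with gamendazole and -0.17 ± 0.13 with lonidamine.

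The alpha ring forms the gate of the core. Averaged over the hours, 6 of its 7 genes had differences above 0 with each drug, and none passed the limma test (median 0.07 with gamendazole and 0.09 with lonidamine). Psma6 read 28039.6, 24754.4 and 24116.8 units with gamendazole, 25169.5, 26295.3 and 24601.7 units with lonidamine and 28161.4, 27365.5, 27653.8 and 26609.3 units with vehicle. All 3 lonidamine arrays and the later gamendazole arrays lay below the vehicle arrays. Psma5 read 2160.9, 2717.9 and 2443.6 units with gamendazole, 2110.7, 2453.9 and 2556 units with lonidamine and 1927.3, 2149, 2096.3 and 2139.7 units with vehicle. The 3 gamendazole arrays lay above every vehicle array, while the 4 h lonidamine array fell among them.

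In the beta ring, the part of the core that cuts peptides, Psmb2 showed the largest averaged difference with gamendazole (0.32 ± 0.12, limma adjusted p = 0.179). It had 2318.1, 2816.8 and 2467.6 units with gamendazole, 1851.9, 2308.1 and 2682.2 units with lonidamine and 1997.9, 2092.7, 1816.4 and 2201 units with vehicle. The gamendazole arrays stood above all vehicle arrays and peaked at 12 h, whereas the 4 h lonidamine array lay among the vehicle arrays and the 24 h array was the highest of the lonidamine arrays. The constitutive catalytic subunits Psmb5 and Psmb7 lay at -0.10 ± 0.07 and 0.04 ± 0.06 with gamendazole, and at -0.06 ± 0.07 and -0.02 ± 0.06 with lonidamine.

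Among the ATPases, the ring of motors that unfolds substrates, 3 of 6 lay above 0 with gamendazole and 2 of 6 with lonidamine, and none passed the limma test. Psmc6 was the highest. It had 827, 884.1 and 927.5 units with gamendazole, 661, 809.1 and 889.1 units with lonidamine and 642.4, 718.3, 617.5 and 690.3 units with vehicle. Every gamendazole array was above every vehicle array, and the averaged difference was 0.38 ± 0.12 (1.30-fold, adjusted p = 0.125). The next brightest Psmc6 probe set gave 0.41 ± 0.11 (adjusted p = 0.0775).

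Psmc3 lay at the other end of the ATPases, with 12769.2, 11439.8 and 10537.6 units with gamendazole, 12031.3, 13164.1 and 11777.7 units with lonidamine and 12907.8, 12094.6, 13458.9 and 14500 units with vehicle. The 12 h and 24 h gamendazole arrays and the 4 h and 24 h lonidamine arrays were lower than every vehicle array. Its averaged difference was -0.21 ± 0.09 with gamendazole (limma adjusted p = 0.215). Psmc5 had 4210.5, 4717.7 and 4646.1 units with gamendazole, 4517, 4587.7 and 4576.7 units with lonidamine and 4403.6, 4594.9, 5267.6 and 5111 units with vehicle. Its groups overlapped, and the vehicle arrays at 12 h and 24 h were the highest of the 10. Psmc2 lay below all 4 vehicle arrays on every array of both drugs, by -0.12 ± 0.05 with gamendazole (adjusted p = 0.185) and -0.09 ± 0.05 with lonidamine (adjusted p = 0.455).

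The 11 other 19S subunits, which include the ubiquitin receptor Psmd4 and the deubiquitinase Psmd14, had a median difference of -0.02 with gamendazole and 0.00 with lonidamine. Their averaged differences ran from -0.12 to 0.20 with gamendazole and from -0.13 to 0.13 with lonidamine. Psmd3, a lid subunit, was the highest of them with gamendazole (0.20 ± 0.14), and its 3 gamendazole arrays (935.9, 948.8 and 840.7 units) lay above its vehicle arrays (823.2, 800.9, 772.7 and 788.1 units).

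Of the 4 chaperones that build the core, Psmg3 and Psmg4 were among the lowest members with gamendazole, and Psmg4 also with lonidamine. Psmg3 had 1057.8, 654 and 1101.9 units with gamendazole, 626.9, 1452.9 and 1415.2 units with lonidamine and 711.2, 1086.3, 1423.1 and 762.3 units with vehicle. Its vehicle arrays alone spanned most of the range of the drug arrays, and its averaged differences of -0.21 ± 0.34 with gamendazole and 0.04 ± 0.34 with lonidamine were smaller than their error. Psmg4 had 4071.1, 3324.6 and 3261.8 units with gamendazole, 3281.5, 3816 and 3246.7 units with lonidamine and 3759.2, 4464.5, 3898 and 3631.1 units with vehicle. Its groups overlapped at 4 h with gamendazole and at 12 h with lonidamine, and its difference was -0.17 ± 0.09 with gamendazole and -0.21 ± 0.09 with lonidamine (limma adjusted p = 0.332 and 0.377). Psmf1, known as a proteasome inhibitor in test-tube assays, differed by -0.10 ± 0.09 with gamendazole and -0.09 ± 0.09 with lonidamine.

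The 3 activators did not move alike. Psme4 encodes PA200, the activator known for its part in histone removal in spermatids. It had 6137, 7023.4 and 6499.2 units with gamendazole, 6683.4, 6692.8 and 6452.9 units with lonidamine and 6495.1, 7022.1, 6561.9 and 5948.7 units with vehicle. The groups overlapped throughout, and the averaged difference was 0.01 ± 0.07 with gamendazole and 0.02 ± 0.07 with lonidamine. Psme1 and Psme2 encode the alpha and beta chains of PA28, which opens the core for short peptides and is known for its part in antigen presentation.

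Psme2 had 486.9, 809.5 and 1291.5 units at 4, 12 and 24 h with gamendazole, 540.7, 663.1 and 1317.9 units with lonidamine and 512.4, 615.3, 467.2 and 538.1 units with vehicle. The 4 h arrays of both drugs lay among the vehicle arrays, the 12 h arrays lay above them, and the 24 h arrays were the highest of the 10. Psme1 had 750.6, 840.5 and 1354 units with gamendazole, 577.6, 751.6 and 1187.8 units with lonidamine and 783.9, 727.1, 671 and 655.4 units with vehicle. Again the 24 h arrays of both drugs were the highest, and the 4 h lonidamine array was the lowest. Averaged over the hours neither gene was called. Psme2 differed by 0.57 ± 0.26 with gamendazole and 0.54 ± 0.26 with lonidamine (limma adjusted p = 0.259 and 0.437). Psme1 differed by 0.47 ± 0.20 with gamendazole and 0.23 ± 0.20 with lonidamine (adjusted p = 0.214 and 0.697).

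To test single hours, each treated array was set against the 4 vehicle arrays pooled over the hours, with the spread taken from the vehicle arrays. At 24 h, Psme2 rose 2.43-fold with gamendazole (1.28 ± 0.17 log2, limma adjusted p = 0.00474) and 2.48-fold with lonidamine (1.31 ± 0.17, adjusted p = 0.00474). Psme1 rose 1.91-fold with gamendazole (0.94 ± 0.14, adjusted p = 0.00744) and 1.68-fold with lonidamine (0.75 ± 0.14, adjusted p = 0.0208). Set against the vehicle array of the same hour and hybridisation run, the differences were 1.26 and 1.05 for Psme2 and Psme1 with gamendazole, and 1.29 and 0.86 with lonidamine. The gamendazole calls of both genes held in all 11 alternatives tried. The Psme2 call with lonidamine was lost in 1 alternative, in which weak probe sets were not filtered out, and the Psme1 call in 5, among them the settings without the vehicle array of 4, 12 or 24 h (adjusted p up to 0.0963).

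**Figure D2:**
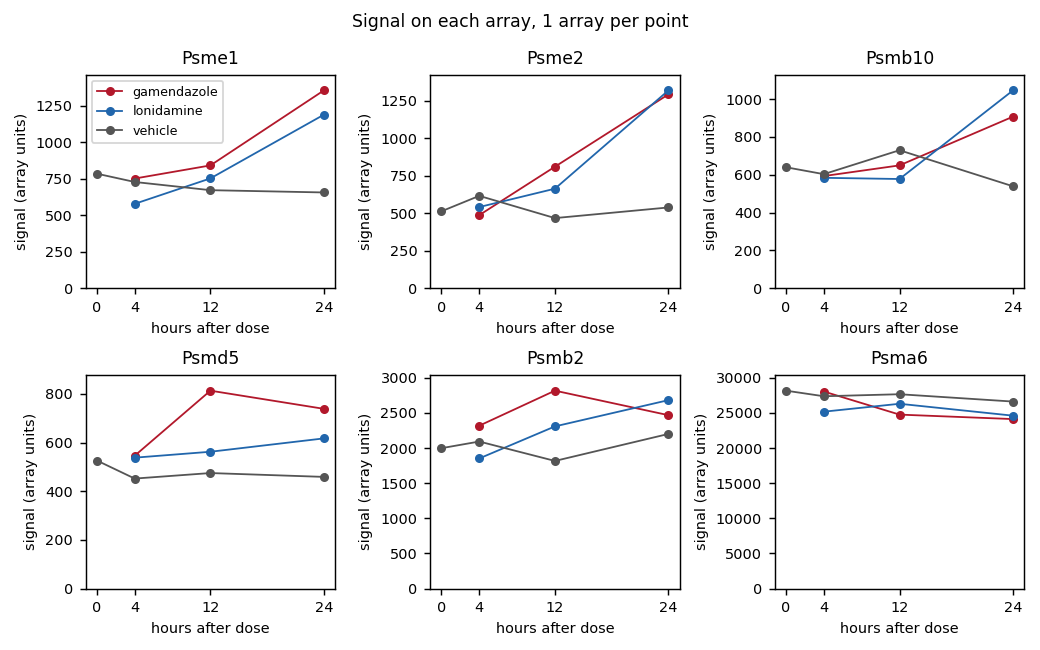
Signal of 6 proteasome genes against hours after the dose, with 1 point per array and the vertical axis starting at 0. Psme1 and Psme2 are highest on the 24 h arrays of both drugs, Psmd5 on the 12 h and 24 h gamendazole arrays, and the drug arrays of Psma6 lie within a narrow band close to vehicle.

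Psmb10, the remaining immunoproteasome catalytic subunit in the set, followed the same hours. It had 592.9, 649.3 and 907 units with gamendazole, 583.6, 577.3 and 1045.8 units with lonidamine and 639.5, 602.9, 729.4 and 538.8 units with vehicle. Its 24 h drug arrays stood above all vehicle arrays and the earlier drug arrays did not. At 24 h it rose 1.68-fold with lonidamine (0.75 ± 0.17, limma adjusted p = 0.0477), and with gamendazole the difference was 0.54 ± 0.17 (adjusted p = 0.102). The lonidamine call was lost without any 1 of the 4 vehicle arrays.

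Counted over all members, limma called 3 genes higher and 1 lower at 24 h with gamendazole, which is 7.14% and 2.38% of the members, beside 5.69% and 4.09% of all tested probe sets. The higher genes were Psme1, Psme2 and Psmd5 (1.55-fold, 0.63 ± 0.14, adjusted p = 0.0372), and the lower gene was Psma6 (-0.19 ± 0.05, adjusted p = 0.0452). The direction of Psma6 turned under cyclic loess scaling, to 0.046. The Psmd5 call was lost without the vehicle array of 4, 12 or 24 h (adjusted p up to 0.0909) and the Psma6 call without that of 0, 4 or 12 h. With lonidamine at 24 h 3 genes were higher (7.14%), namely Psme1, Psme2 and Psmb10, and 0 were lower, beside 5.03% and 1.98% of all tested probe sets. In either direction, 18 members had an unadjusted limma p under 0.05 at 24 h with gamendazole (42.9% beside 25.4% of all tested probe sets). With lonidamine 14 did (33.3% beside 21.6%), so both shares of members were above those of all tested probe sets. In the single-hour fits the members also had narrower intervals, with a median half-width of 0.21 log2 units beside 0.48 for all tested probe sets. Smaller differences therefore reach the same p among members. The share among probe sets of the members' brightness was not counted, so an excess at equal brightness was not tested.

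At 12 h with gamendazole 3 members were higher (7.14%) and 0 lower, beside 4.91% and 2.85% of all tested probe sets. They were Psmd5 (1.70-fold, 0.77 ± 0.14, limma adjusted p = 0.0213), Psmb2 (1.39-fold, 0.48 ± 0.11, adjusted p = 0.045) and Psma5 (1.31-fold, 0.39 ± 0.09, adjusted p = 0.0443). Without any 1 of the vehicle arrays the Psmb2 and Psma5 calls were lost, and 0 or 1 member was called. Psme2 at 12 h was 0.61 ± 0.17 (adjusted p = 0.0731). With gamendazole at 12 h 9 members had an unadjusted limma p under 0.05 (21.4% beside 23.4% of all tested probe sets). With lonidamine at 12 h 0 members were called, beside 1.28% of all tested probe sets higher and 0.142% lower, and 3 members had an unadjusted p under 0.05 (7.14% beside 12.1% of all tested probe sets).

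At 4 h limma called 0 members with either drug. Of all tested probe sets 1.05% were called higher and 0.103% lower with gamendazole, and 0.0513% higher and 0.0171% lower with lonidamine. The members with an unadjusted p under 0.05 numbered 1 with gamendazole (2.38% beside 11.9% of all tested probe sets) and 6 with lonidamine (14.3% beside 9.03%).

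The core and the regulatory particle were also followed against the vehicle array of the same hour, as a description without a test. At 24 h, 11 of the 14 core genes lay above vehicle with gamendazole (median 0.18) and 13 of 14 with lonidamine (median 0.15). The 17 subunits of the 19S particle had medians of -0.02 with gamendazole and -0.00 with lonidamine, with 8 of 17 above vehicle in each case. At 4 h with lonidamine 1 of the 14 core genes lay above vehicle (median -0.11), while gamendazole at 4 h had 7 of 14 (median -0.00). Probe sets within the members' range of brightness had medians of -0.08 with gamendazole and -0.06 with lonidamine at 24 h. At 4 h their medians were -0.016 and -0.004. The core medians at 24 h were 0.18 and 0.17 under quantile scaling and 0.23 and 0.19 under cyclic loess, for gamendazole and lonidamine. Those of the 19S particle moved to 0.05 for both under loess. On the same 24 h arrays, 5 of 8 markers of spermatids were called lower with gamendazole and 4 of 8 with lonidamine. Of all tested probe sets 4.09% and 1.98% were called lower. Over 11 alternatives the count of spermatid markers called ran from 0 to 7 with gamendazole and from 0 to 5 with lonidamine. The summed spermatid marker signal was 212509 to 240598 units on gamendazole arrays, 217463 to 237250 on lonidamine arrays and 244227 to 259261 on vehicle arrays, and the 24 h array was the lowest of each treatment. Of 6 markers of Leydig cells 4 were called lower at 24 h with each drug, with list medians of -2.09 for gamendazole and -1.41 for lonidamine. Another of the 6, Star, was called higher at 24 h with each drug. The summed signal of 6 Sertoli cell markers at 24 h was 23100.5 units with gamendazole and 21162.5 units with lonidamine, against 12553.1 to 13662.4 units on the vehicle arrays. Most of the excess over vehicle came from Ctsl, with 11744.9 and 9246.2 units against 3402.1 to 3798.9 units on the vehicle arrays. Of the 5 tested, Cldn11 and Ctsl were called higher with each drug, and 3 lay above 0 with gamendazole and 4 with lonidamine. The share of all tested probe sets called higher at 24 h was 5.69% with gamendazole and 5.03% with lonidamine. The part of these markers in the core genes' values was not tested. In whole testis, fewer cells of a type and less RNA per cell cannot be told apart.

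**Figure D3:**
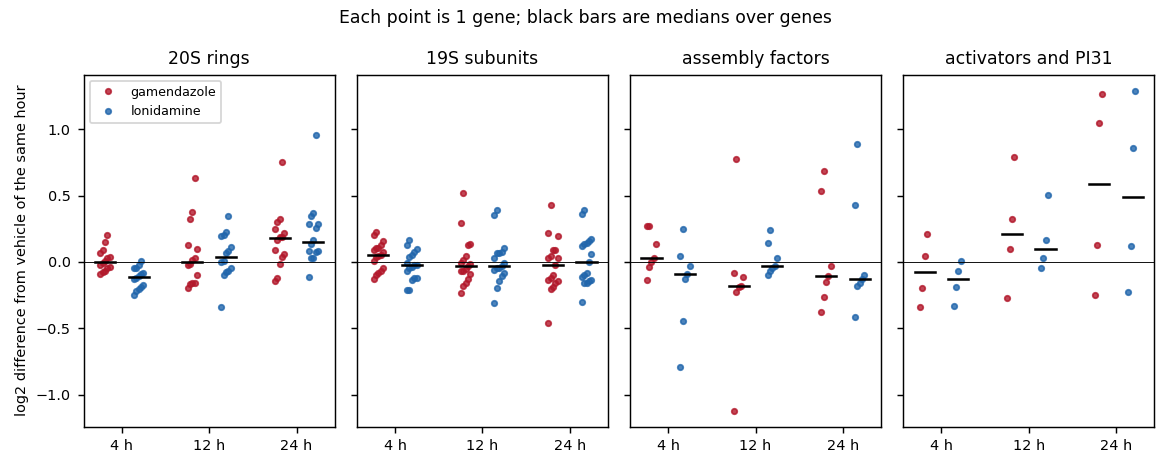
Log2 difference of each member (points) from the same-hour vehicle array, by role and hour, with gamendazole left of lonidamine and black bars for medians over genes. The medians of the 20S rings lie above 0 at 24 h (0.18 and 0.15), and those of the 19S subunits stay around 0. Among the activators at 24 h, Psme2 reaches above 1 with both drugs and Psme1 with gamendazole, while Psme4 lies at 0.13 and 0.12.

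Between 4 h and 24 h the members' values shifted upward most with lonidamine, again as a description. The median difference of 24 h minus 4 h was 0.05 with gamendazole (24 of 42 above 0), 0.19 with lonidamine (31 of 42) and 0.02 with vehicle (22 of 42). Probe sets of the same brightness had medians of -0.05, -0.04 and 0.01 in the same order of treatments. The 4 h and 24 h arrays came from different hybridisation runs with each treatment, and the vehicle and lonidamine arrays of each hour shared their run. Setting the 24 h array against the 4 h array of a drug in limma compares 1 array with 1 array of another run, with the error taken from the vehicle arrays on the assumption that treated arrays vary like them, and the comparison was added with the values known. On that footing Psme2 differed by 1.41 ± 0.21 with gamendazole (limma adjusted p = 0.026) and by 1.29 ± 0.21 with lonidamine (adjusted p = 0.0275). Psme1 differed by 0.85 ± 0.17 with gamendazole (adjusted p = 0.0657) and by 1.04 ± 0.17 with lonidamine (adjusted p = 0.0299). The members past the threshold were 1 higher with gamendazole (2.38%) and 2 higher with lonidamine (4.76%), and 0 were lower with either. Of all tested probe sets 0.866% were called higher and 0.746% lower with gamendazole, and 1.78% higher and 0.507% lower with lonidamine.

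Genes whose 3 drug arrays did not overlap the 4 vehicle arrays were also counted, and Psme1, Psme2 and Psmb10 were not among them. With gamendazole 6 members lay wholly above vehicle (Psma5, Psmb2, Psmb3, Psmc6, Psmd3 and Psmd5), which is 14.3% of members beside 10.1% of all tested probe sets, and 1 lay wholly below (Psmc2, 2.38% beside 8.97%). With lonidamine 2 lay wholly above (Psma4 and Psmd5, 4.76% beside 7.19%) and 2 wholly below (Psma6 and Psmc2, 4.76% beside 7.14%).

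Between the 2 drugs no proteasome gene passed the test. In the averaged comparison of gamendazole over lonidamine limma called 0 members and 0% of all tested probe sets in each direction (0% higher, 0% lower), and 0 members had an unadjusted p under 0.05, beside 4.42% of all tested probe sets. The median difference of the members was 0.02, beside -0.02 for probe sets of the same brightness. The 95% interval of the difference lay within 1.5-fold for 39 of the 42 genes. Psmd5 had the largest difference, 0.27 with an interval of -0.03 to 0.58. For Psme2 it was 0.04 with an interval of -0.55 to 0.62, and for Psme1 0.24 with an interval of -0.19 to 0.68, both reaching past 1.5-fold higher with gamendazole. The doses were 6 and 25 mg/kg, so these are differences between the 2 treatments as given and not between the compounds at a matched dose.

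Genes that work with the proteasome were then counted from lists of known function. Pomp, the maturation factor that helps to close new core particles, had 4464.1, 4876 and 5363.2 units with gamendazole, 3841.6, 4480.4 and 5106.8 units with lonidamine and 4265.8, 4011.4, 3968.6 and 3946.7 units with vehicle. At 24 h it was called higher with gamendazole (1.33-fold, 0.41 ± 0.07, limma adjusted p = 0.0142) and with lonidamine (1.26-fold, 0.34 ± 0.07, adjusted p = 0.0335). On those arrays 5.69% and 5.03% of all tested probe sets were called higher. The other 6 tested proteasome-associated genes, such as the deubiquitinases Usp14 and Uchl5, were not called with either drug at the chosen settings. Over 11 alternatives the 24 h count of these 7 genes ran from 0 to 2 with gamendazole and from 0 to 1 with lonidamine. Neither Pomp call therefore held in all alternatives.

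Genes of the immunoproteasome and of the loading of peptides on MHC class I were called on the single 24 h arrays of both drugs. All 6 tested genes of that list were called higher there with each drug, with medians of 0.82 for gamendazole and 1.25 for lonidamine. The share of all tested probe sets called higher at 24 h was 5.69% with gamendazole and 5.03% with lonidamine. Over 11 alternatives the count of the list was 3 to 6 with gamendazole and 4 to 6 with lonidamine. In the averaged comparison 1 of the 6 (Irf1) was called with each drug, beside 3.48% of all tested probe sets called higher with gamendazole and 0.769% with lonidamine. Over 15 alternatives the averaged count was 0 to 3 for gamendazole and 0 to 2 for lonidamine. At 4 h with lonidamine 0 of the 6 were called, with a median of -0.08, beside 0.0513% of all tested probe sets called higher. Psmb8 had 610.5, 735.6 and 981.6 units with gamendazole, 516.7, 547.5 and 962.6 units with lonidamine and 629.2, 563, 523.8 and 565.1 units with vehicle. Psmb9 had 452.2, 453.8 and 615.9 units with gamendazole, 314, 366.2 and 907.3 units with lonidamine and 416.7, 333.6, 318.3 and 358.8 units with vehicle. In both genes the 24 h arrays were the highest. At 24 h Psmb8 was 1.72-fold higher with gamendazole and 1.69-fold higher with lonidamine (limma adjusted p = 0.0164 and 0.0226), and Psmb9 was 1.74-fold and 2.56-fold higher (adjusted p = 0.0405 and 0.00678). Tapbp, the partner of the peptide transporter (1.79-fold and 2.23-fold), the MHC light chain B2m (1.52-fold and 1.77-fold) and the interferon-response factor Irf1 (3.03-fold and 6.79-fold) were also called higher at 24 h, with gamendazole first in each pair. The transporter gene Tap1 had 64.5, 249.9 and 190.9 units with gamendazole, 49.3, 163.4 and 436.9 units with lonidamine and 44.7, 65.4, 65.3 and 67.1 units with vehicle. It passed the filter on weak signals, which asked for 116.2 units on 2 arrays, only through drug arrays. The Tap1 call therefore adds nothing, though Tap1 is included in the 6 genes counted and in the list medians.

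Over the 10 arrays Psme2 correlated with Psme1 at r = 0.911 and with Psmb8 at r = 0.921, as a description over arrays that share their 24 h samples. Some leukocyte markers moved at the same hour. Of the 7 tested of 8 listed, 3 were called higher at 24 h with gamendazole (Cd163, C1qa and S100a9) and 2 with lonidamine (Cd163 and C1qa). The list medians were 1.15 and 1.23, and 5.69% and 5.03% of all tested probe sets were called higher on those arrays. S100a9 and Ptprc passed the filter on weak signals only through drug arrays, with at most 53.7 and 96.7 units on a vehicle array. The S100a9 call therefore adds nothing, and both genes enter the list medians. Aif1, the brightest marker, had 7232.8 and 7104.8 units at 24 h with gamendazole and lonidamine, below its 7723.3 to 8340.3 units on the vehicle arrays. The summed signal of the 8 markers was 8673.9 to 8989.7 units with gamendazole, 8370.8 to 8805.5 with lonidamine and 8522.9 to 9054.3 with vehicle, most of it from Aif1, and 0 of the 8 lay at the floor on all arrays. Their part in the rise of Psme1, Psme2 and Psmb10 was not tested.

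Nfe2l1, the factor that raises proteasome genes when the proteasome is short, had 557.7, 569.3 and 486.4 units with gamendazole, 529.5, 587.8 and 615.6 units with lonidamine and 622.2, 495.1, 617.9 and 633.3 units with vehicle. The groups overlapped, and its averaged difference was -0.11 ± 0.13 with gamendazole and -0.01 ± 0.13 with lonidamine. Of the 8 tested genes of its processing route, among them the protease Ddi2, the deglycosylase Ngly1 and the segregase Vcp, 0 were called in limma in any of the comparisons with vehicle. Nfe2l1 is regulated largely as a protein, which these arrays do not measure.

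Some genes known to rise when misfolded proteins build up were called with gamendazole. In the averaged comparison 6 of 16 tested genes were higher and 0 lower with gamendazole, with a list median of 0.19. Among the 6 was Atf3, which passed the filter on weak signals only through drug arrays, so its call adds nothing to the count. With lonidamine 0 were called, with a median of 0.11. Of all tested probe sets 3.48% were called higher with gamendazole and 0.769% with lonidamine. The gamendazole count was 0 without the 12 h arrays, where limma called 0 probe sets of all tested, and it ran from 0 to 6 over 15 alternatives, so no gene named here as called held throughout. The small heat shock protein gene Cryab had 220.8, 798.1 and 578.4 units with gamendazole, 150.1, 130.2 and 199 units with lonidamine and 159.4, 130, 115.7 and 92.7 units with vehicle. All gamendazole arrays were above all vehicle arrays, and the lonidamine arrays overlapped them. Cryab rose 4.18-fold with gamendazole (2.06 ± 0.39, limma adjusted p = 0.0207). Zfand2a, an arsenite-inducible gene that binds the proteasome, rose 2.17-fold (adjusted p = 0.0375), and its relative Zfand5 rose 1.36-fold (adjusted p = 0.0489).

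The other genes called in that list were the stress-response genes Hmox1 (2.35-fold, limma adjusted p = 0.0151) and Atf3 and the chaperone Hsph1 (1.39-fold, adjusted p = 0.0334). Atf3 had 142.2, 426.9 and 341 units with gamendazole, 82.9, 217.5 and 438 units with lonidamine and 9, 46.9, 48.1 and 38.7 units with vehicle. It passed the filter on weak signals only through drug arrays, so its calls add nothing to the counts of the list. Of the heat shock genes not called in the averaged comparison, Hspa1a differed by 0.36 ± 0.15 (adjusted p = 0.236), Dnajb1 by -0.14 ± 0.05 (adjusted p = 0.153) and Bag3 by 0.02 ± 0.07 (adjusted p = 0.926) with gamendazole. On the single 24 h arrays 4 of the 16 were higher with gamendazole, namely the small heat shock protein gene Hspb1 (2.02-fold, limma adjusted p = 0.0054), Cryab, Hmox1 and Atf3. With lonidamine 3 were higher, namely Hspb1 (1.56-fold, adjusted p = 0.0348), Hmox1 (2.22-fold) and Atf3. Of all tested probe sets 5.69% were called higher at 24 h with gamendazole and 5.03% with lonidamine. Whether the list differs between the drugs was not tested, and none of its genes was called in the direct comparison of the drugs, in which limma called 0 probe sets of all tested.

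**Figure D4:**
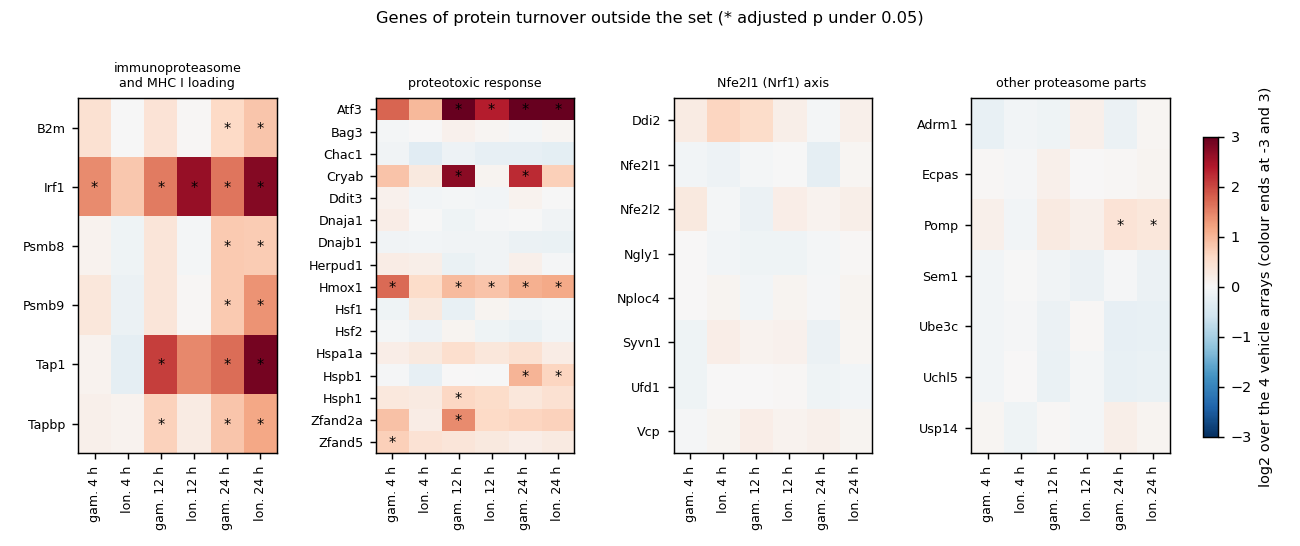
Log2 difference of each treated array from the 4 pooled vehicle arrays for genes of 4 lists (rows), with arrays in order of hour and gamendazole left of lonidamine; colour runs from blue (lower) to red (higher) and an asterisk marks a limma adjusted p under 0.05. All 6 immunoproteasome and MHC class I genes are marked at 24 h with both drugs, 0 of the 8 Nfe2l1 axis genes are, and Pomp is marked at 24 h. Tap1 and Atf3 passed the filter on weak signals only through drug arrays, so their marks add nothing.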

How the data were processed

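RNA of whole testis was hybridised to 10 Affymetrix arrays, 1 per treatment and hour. Each deposited value is an intensity on a linear scale for 1 probe set, made by the authors with GCOS 1.1, per the submitters' processing notes; by the values themselves every array was scaled to 1 trimmed mean, close to 500 units, with 2% trimmed at each end. The number of arrays limits the precision. Array medians lay between 110.2 and 124.5 units. Hybridisation runs were grouped from the deposited instrument records into 3 runs: vehicle 0 h, vehicle 4 h and lonidamine 4 h in the first, gamendazole 4 h and the 12 h arrays in the next, and the 24 h arrays in the last, so that for 24 h run and hour cannot be told apart.

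After removal of 57 control probe sets from 31099, signals weaker than 37.1, the 25th percentile over all arrays, were raised to that floor before log2. Tests covered the 17549 probe sets that reached 116.2, the median over all arrays, on at least 2 arrays. Gene names came from the platform annotation given for the series; 20826 probe sets had 1 symbol, 436 had several and 9780 were not listed. Member genes held 56 probe sets, of which 52 were tested. Levels of different probe sets were not compared.

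The averaged comparisons used limma 3.58.1 in R 4.3.3 on the 9 arrays later than 0 h with factors for treatment and hour, 4 residual degrees of freedom, a variance trend and Benjamini-Hochberg adjustment over all tested probe sets, called at 0.05. Single hours were fitted with all 10 arrays and the 4 vehicle arrays as 1 group, which leaves 3 residual degrees of freedom from vehicle arrays only. Folds and log2 differences are from these fits unless the vehicle array of the same hour is named. The fits were tested on simulated data. Members, lists and tests were chosen with earlier results of these data known. Every member could be named; given on every array were members called in any comparison, the 3 highest and 3 lowest per drug in the averaged comparison, and Psme4. Array values of Psmc6, Nfe2l1, Cryab, Pomp, Psmb8 and Psmb9, and some of Psmd3, were added after the values were seen. Alternatives covered the floor, a pseudocount of 16, the filter, the scaling, the variance trend, the hour and run terms, arrays left out and all probe sets of a member. The comparison of 24 h with 4 h, the actin 3' to 5' ratio as a covariate and the omission of each vehicle array were chosen after seeing the data.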

Additional observations from a re-analysis of the deposited data

Results flagged for a closer look

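Differences between hours within a drug drew attention for Psme2 and Psme1. The 24 h array differed from the 4 h array of the same drug by 1.41 log2 units for Psme2 with gamendazole, by 1.29 for Psme2 with lonidamine and by 1.04 for Psme1 with lonidamine (limma adjusted p = 0.026, 0.0275 and 0.0299). Each value compares 1 array with 1 array of another hybridisation run, its error is that of the vehicle arrays, and the comparison was added with the values known. Vehicle arrays of those hours had 538.1 and 615.3 units for Psme2, and 655.4 and 727.1 units for Psme1, at 24 h and 4 h. In the check for single arrays far from the rest of a group, run on the 4 vehicle arrays of each of the 42 genes, 1 gene stood out. Psma7, an alpha ring subunit, had 1601 units on the 0 h vehicle array, while the other vehicle arrays lay between 1447.8 and 1471.7 units. Chance alone marks about 1 in 20 groups in this check. The 0 h array enters only the pooled vehicle group, and without it no comparison of Psma7 with vehicle changed its call.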

How the results depend on the processing

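With gamendazole averaged over the hours, 1 proteasome gene (Psmd5) was called. The count was 0 with the floor at the 50th percentile, with no filter, under quantile or cyclic loess scaling, without the variance trend, without the hour factor, with run replacing hour and with the actin covariate. Leaving out arrays gave 0 to 7: 7 without the 4 h arrays (3 higher, 4 lower), 4 without the gamendazole 4 h array (1 higher, 3 lower) and 0 without the 12 h or the 24 h arrays. With lonidamine the count was 0 in all settings but the one without the 4 h arrays, where it was 1 (range 0 to 1), and for gamendazole over lonidamine it was 0 in all. The members' median with gamendazole was 0.01, beside 0.075 under cyclic loess and 0.044 over all probe sets of the members, and -0.0089 to 0.064 with arrays left out. With lonidamine it was 0.052 under cyclic loess and -0.03 to 0.03 with arrays left out, and between the drugs -0.03 to 0.05 with arrays left out. At 12 h with gamendazole 3 were called, 1 with no filter, 0 without the variance trend and 0 to 1 without a vehicle array. At 24 h with gamendazole 4 were called, 2 with no filter, under quantile scaling or without the variance trend, and 2 to 3 without a vehicle array. At 24 h with lonidamine 3 were called, 1 with no filter or without the variance trend, and 1 to 2 without a vehicle array. Single genes kept their direction wherever they were called, except Psma6 with gamendazole at 24 h, which turned to 0.046 under cyclic loess. The causes were not tested. Over all genes the 693 calls with gamendazole became 0 with no filter or without the 12 h arrays, 28 without the variance trend and 1646 without the 4 h arrays, and the 137 with lonidamine became 0, 0, 2 and 600. The shift of the median of all tested probe sets under quantile and loess scaling was under 0.1. The labels give no replicate numbers, and the averaged fit already matches arrays of the same hour. The median half-width of the members' 95% intervals in that fit was 0.19 log2 units.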

Other observations

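Outside the comparisons above, ubiquitin shuttle and aggregate-handling genes gave few calls. Rad23b, which carries ubiquitinated proteins to the proteasome, was 1.30-fold higher with gamendazole averaged over the hours (0.38 ± 0.09, limma adjusted p = 0.0458), a call that was lost without the 12 h arrays. The autophagy receptor Sqstm1 was 1.28-fold higher at 24 h with gamendazole (adjusted p = 0.0406). Ubqln2, another shuttle, was lower at 12 h with gamendazole (-0.59 ± 0.12, adjusted p = 0.0288) and at 24 h with lonidamine (-0.52 ± 0.12, adjusted p = 0.0442). Uba1, the main ubiquitin-activating enzyme, was 1.37-fold higher at 12 h with gamendazole (adjusted p = 0.046). Of the 5 ubiquitin ligase and conjugating genes with known roles in testis, Rnf4 was called, lower at 24 h with gamendazole (-0.24 ± 0.06, adjusted p = 0.0445). With gamendazole, the share of all tested probe sets called higher was 3.48% averaged over the hours, 4.91% at 12 h and 5.69% at 24 h. The share called lower was 2.85% at 12 h and 4.09% at 24 h with gamendazole, and 1.98% at 24 h with lonidamine.

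Other probe sets of the same genes did not always give the value of the brightest one. The dimmest of the 3 Psme4 probe sets read 675.1, 637.1 and 603.5 units with gamendazole, 736, 708.3 and 682.4 units with lonidamine and 509.4, 569.8, 515 and 539.6 units with vehicle, so that all drug arrays lay above all vehicle arrays. Its averaged difference was 0.24 ± 0.11 with gamendazole and 0.39 ± 0.11 with lonidamine (limma adjusted p = 0.252 and 0.156), beside 0.01 and 0.02 for the brightest. Which Psme4 transcripts the probe sets read was not analysed here.

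Over the 10 arrays, the genes whose log2 signal correlated best with the mean of the 42 members were Esam (r = 0.952), Scrn1 (0.951), Cers2 (0.942), Urod (0.939) and Atp6v0d1 (0.934), out of 10468 genes. Single members correlated with the mean of the others at -0.525 (Psmd9) to 0.903 (Psma2), with a median of 0.452.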
